A study of Mus musculus with 12 samples.

Results

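Splicing factors of the SR and hnRNP families were examined together with the nuclear speckle RNA Malat1 in mouse embryonic fibroblasts with and without the retinoblastoma gene, before and after cisplatin. The genes were those with a single annotated symbol starting with Srsf or Hnrnp, plus Tra2a, Tra2b, Ptbp1, Ptbp2, U2af1, U2af2, Sf1, Sf3a1, Sf3b1, Clk1, Clk4, Son and Malat1. They were taken by name, with earlier results of these data known. They came to 40 genes on 109 probe sets, of 22690 probe sets on the array, and 104 of the 109 had enough signal to be tested, of 13575 tested in all. The 5 that did not were 1 probe set each of Hnrnpa1, Hnrnpdl and Ptbp2 and 2 of Hnrnpab, and each of these genes kept at least 1 tested probe set. Another 7 probe sets carrying several symbols of these families were left out.

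The 4 groups, of 3 Affymetrix arrays each, were Rb null fibroblasts given 16 µM cisplatin for 24 h, wildtype fibroblasts given the same, untreated Rb null fibroblasts and untreated wildtype fibroblasts. Cisplatin is a platinum drug that crosslinks DNA bases. The cells were primary cultures at passage 2, made from embryos of day 13.5. The series describes 4 RNA samples in all, each hybridised 3 times, so every p-value below measures the spread between arrays of the same RNA and not between cultures or embryos. The number of embryos, their litters and the Rb allele are not given in the labels.

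SR proteins bind exonic enhancers through RNA recognition motifs and use an arginine- and serine-rich tail to bring in the spliceosome. Kinases of the CLK family phosphorylate that tail and release SR proteins from nuclear speckles, the storage bodies in which Malat1 and the scaffold protein SON reside. The hnRNPs coat nascent transcripts and often oppose SR proteins at the same exons, and U2AF, SF1 and the SF3 complexes read the branch point and 3′ splice site. Many genes of both families carry ultraconserved exons whose inclusion sends the messenger RNA to decay, so their transcripts exist as several isoforms that different probe sets can read differently.

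Rb1 signal averaged 89.6 ± 14.5 in Rb null cells against 382.9 ± 60.1 in wildtype cells after cisplatin, and 94.0 ± 9.99 in untreated Rb null cells against 459.7 ± 35.4 in untreated wildtype cells (SD, n = 3 each). Arrays of 1 group correlated at 0.978 to 0.988 over 12 pairs, and arrays of different groups at 0.908 to 0.973 over 54 pairs. Untreated wildtype arrays stood apart in sex-linked transcripts: Xist averaged 3443 and 3139 in Rb null cells after cisplatin and untreated and 2379 in wildtype cells after cisplatin, but 132.2 ± 26.7 in untreated wildtype cells, and the Y-linked Eif2s3y averaged 478.1 there and 6.63 or less in the other groups. In every comparison that uses untreated wildtype cells, the effect of genotype or drug and this difference cannot be told apart. Of the 10 fibroblast markers listed, 9 were on the array and all 9 were tested, with a summed signal of 43893 to 44662 in Rb null and 55680 to 58002 in wildtype cells after cisplatin, and of 63921 to 66291 in Rb null and 63894 to 66954 in wildtype cells without it. All 11 macrophage and leukocyte markers were tested and summed to 5824 to 6108 in Rb null and 10970 to 11561 in wildtype cells after cisplatin, and to 7072 to 7460 in Rb null and 5194 to 5536 in wildtype cells without it. The 6 epithelial markers, 3 of them tested, summed to 1299 to 1420 in Rb null and 1236 to 1419 in wildtype cells after cisplatin, and to 378.1 to 501.6 in Rb null and 587.4 to 681.4 in wildtype cells without it, while the defining marker Epcam averaged 21.2 or less in every group. With cisplatin 2 of those 3 (66.7%) were called higher in each genotype. Of all 7945 tested genes, 1 probe set per gene, 16.6% were called higher in Rb null and 14.8% in wildtype cells. The 5 neural markers, 3 of them tested, summed to 1724 to 2354 in Rb null and 1233 to 1557 in wildtype cells after cisplatin, and to 2114 to 2480 in Rb null and 3974 to 4363 in wildtype cells without it. The 4 muscle markers, 2 of them tested, summed to at most 418.9 on any array of the Rb null or cisplatin groups and to 563.1 to 655 in untreated wildtype cells. The part of these differences in the results below was not tested, and in bulk RNA fewer cells of a type and less RNA per cell cannot be told apart.

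The promoters of 3 genes are shown because they differ in the letters that E2F factors, the partners of the Rb protein, are known to favour, and because these genes carry the differences described below. RefSeq (GRCm38.p6) gave 49 promoters for 36 of the 40 genes, each from 250 bases before to 50 bases after a start. Capitals mark matches to E2F-like letters (TTTGGCGC, TTTCCCGC or TTTCGCGC), to CCAAT or to the cyclic AMP element TGACGTCA, on either strand. Malat1 (chr19:5802623-5802922, minus strand) held none of these, Srsf1 (chr11:88047123-88047422, plus strand) held an E2F-like match and a CCAAT box, and Hnrnpr had 2 starts: the window of the first (chr4:136310692-136310991, plus strand) held 4 CCAAT boxes and no E2F-like match, and that of the second (chr4:136311348-136311647, plus strand) held an E2F-like match.
Malat1: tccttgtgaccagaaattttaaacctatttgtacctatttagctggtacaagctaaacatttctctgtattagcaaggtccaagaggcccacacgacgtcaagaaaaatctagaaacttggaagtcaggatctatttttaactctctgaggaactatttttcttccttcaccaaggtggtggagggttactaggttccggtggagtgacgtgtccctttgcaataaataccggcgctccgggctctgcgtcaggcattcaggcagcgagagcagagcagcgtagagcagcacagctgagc
Srsf1: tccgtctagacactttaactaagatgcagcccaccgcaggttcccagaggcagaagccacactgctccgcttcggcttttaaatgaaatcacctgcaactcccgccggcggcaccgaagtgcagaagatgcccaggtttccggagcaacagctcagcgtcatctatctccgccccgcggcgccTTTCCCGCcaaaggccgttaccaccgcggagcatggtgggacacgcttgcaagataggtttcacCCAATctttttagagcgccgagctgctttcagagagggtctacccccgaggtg
Hnrnpr, first start: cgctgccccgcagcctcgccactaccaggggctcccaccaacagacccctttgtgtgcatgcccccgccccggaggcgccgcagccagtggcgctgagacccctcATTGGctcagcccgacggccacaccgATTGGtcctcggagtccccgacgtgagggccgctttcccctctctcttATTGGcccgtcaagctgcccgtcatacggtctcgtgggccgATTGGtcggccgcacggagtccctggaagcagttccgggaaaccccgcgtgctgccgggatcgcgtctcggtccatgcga
Hnrnpr, second start: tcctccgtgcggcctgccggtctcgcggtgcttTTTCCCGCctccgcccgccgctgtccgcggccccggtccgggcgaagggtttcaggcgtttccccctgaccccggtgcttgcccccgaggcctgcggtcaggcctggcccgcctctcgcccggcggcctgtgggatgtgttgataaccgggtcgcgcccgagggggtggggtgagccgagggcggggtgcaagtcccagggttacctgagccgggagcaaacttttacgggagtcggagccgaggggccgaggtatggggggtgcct
An E2F-like match lay in 7 of the 49 promoters (14.3%), from Hnrnpr (its second start), Hnrnpul1, Srsf1, Srsf10, Tra2b and U2af1, against 1.84% of all 32851 promoters in the table. Of these genes, Hnrnpul1, Tra2b and U2af1 were called in none of the comparisons below, and a link between match and change was not tested. CCAAT lay in 51.0% against 37.4% of all promoters, TGACGTCA in 4.08% against 1.79%, and the GC box GGGCGG, not capitalised here, in 81.6% against 35.7%. Median GC content was 65.3% in these promoters and 52.7% in all, and a match of letters is a description and not a binding site.

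With cisplatin, more of the splicing factor probe sets were higher in Rb null than in wildtype cells than lower. A probe set was called when its adjusted p (limma, Benjamini-Hochberg over all 13575 tested) was under 0.05 and its change at least 1.5-fold, and 23 of 104 (22.1%) were called higher, where 9.21% of all tested probe sets were, while 2 (1.92%) were called lower, where 12.9% of all were. The 23 belonged to 16 genes: Malat1 (5 of the 23), Clk1, Clk4, Srsf2, Srsf4, Srsf6, Srsf10, Hnrnpa1, Hnrnpa2b1, Hnrnpab, Hnrnpc, Hnrnpdl, Hnrnph1, Hnrnpu, Ptbp2 and Sf1. The 2 called lower belonged to Hnrnpr and Sf3b1. The median log2 difference was 0.25 over the 104 probe sets and -0.04 over all tested.

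Without cisplatin the same comparison gave 12 probe sets called higher (11.5%) where 7.68% of all were, and 1 called lower (0.962%) where 4.69% of all were. With 1 probe set per gene the share called higher was instead below that of all genes (5.00%, against 8.07%). The 12 belonged to Srsf1, Srsf2, Srsf3, Srsf4, Srsf6, Hnrnpa2b1, Hnrnpd, Hnrnpdl, Hnrnpr and Sf1, and the 1 called lower was Malat1. The median was 0.32 over the 104 and -0.00 over all tested, and 89 of 104 differences were positive. The E2F and S phase genes were listed for context with 1 probe set per gene. In Rb null cells 21 of 23 (91.3%, against 9.67% of all 7945 tested genes) were called higher with cisplatin, and 23 of 23 (against 8.07%) without. Untreated wildtype cells are the group that stood apart in sex-linked transcripts. The 5 probe sets called higher in both genotype comparisons, which share no arrays, belonged to Srsf4, Srsf6, Hnrnpa2b1 and Sf1. The share of all tested probe sets called higher in both was not counted.

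Within Rb null cells, cisplatin was accompanied by 11 calls higher (10.6%, against 15.8% of all tested) and 12 calls lower (11.5%, against 20.9% of all tested). All 5 Malat1 probe sets were among the 11, and Son, Clk1, Srsf2, Srsf11 and Hnrnpab also had a probe set called higher. Srsf1, Srsf3, Srsf9, Hnrnpd, Hnrnpdl, Hnrnpl, Hnrnpr and Sf3b1 had one called lower. The split depended on the scaling: with each array centred on its median it was 16 higher (15.4%, against 21.4% of all tested) and 8 lower (7.69%, against 16.6% of all tested), and the median of all tested probe sets moved to 0.12 from -0.02. Under either scaling the members' shares were below those of all tested probe sets.

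Within wildtype cells, cisplatin was accompanied by 9 calls higher (8.65%, against 13.5% of all tested) and 2 calls lower (1.92%, against 13.2% of all tested). All 5 Malat1 probe sets were among the 9, and Son, Srsf2, Ptbp1 and Sf3b1 also had a probe set called higher. Hnrnpc and Sf3b1 had one called lower. In both genotypes 8 probe sets of Malat1, Son, Srsf2 and Sf3b1, 5 of them of Malat1, were called in the same direction, and none in opposite directions. The share of all tested probe sets called in both was not counted, and over all tested the 2 responses had a Pearson r of 0.708. Over the 5 comparisons, the difference of responses included, 44 of the 104 probe sets (42.3%), of 26 genes, were called at least once, against 53.5% of all tested probe sets. No probe set of Srsf5, Tra2a, Tra2b, Hnrnpf, Hnrnph2, Hnrnph3, Hnrnpk, Hnrnpll, Hnrnpm, Hnrnpul1, Hnrnpul2, U2af1, U2af2 or Sf3a1 was called in any of the 5.

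**Figure D1:**
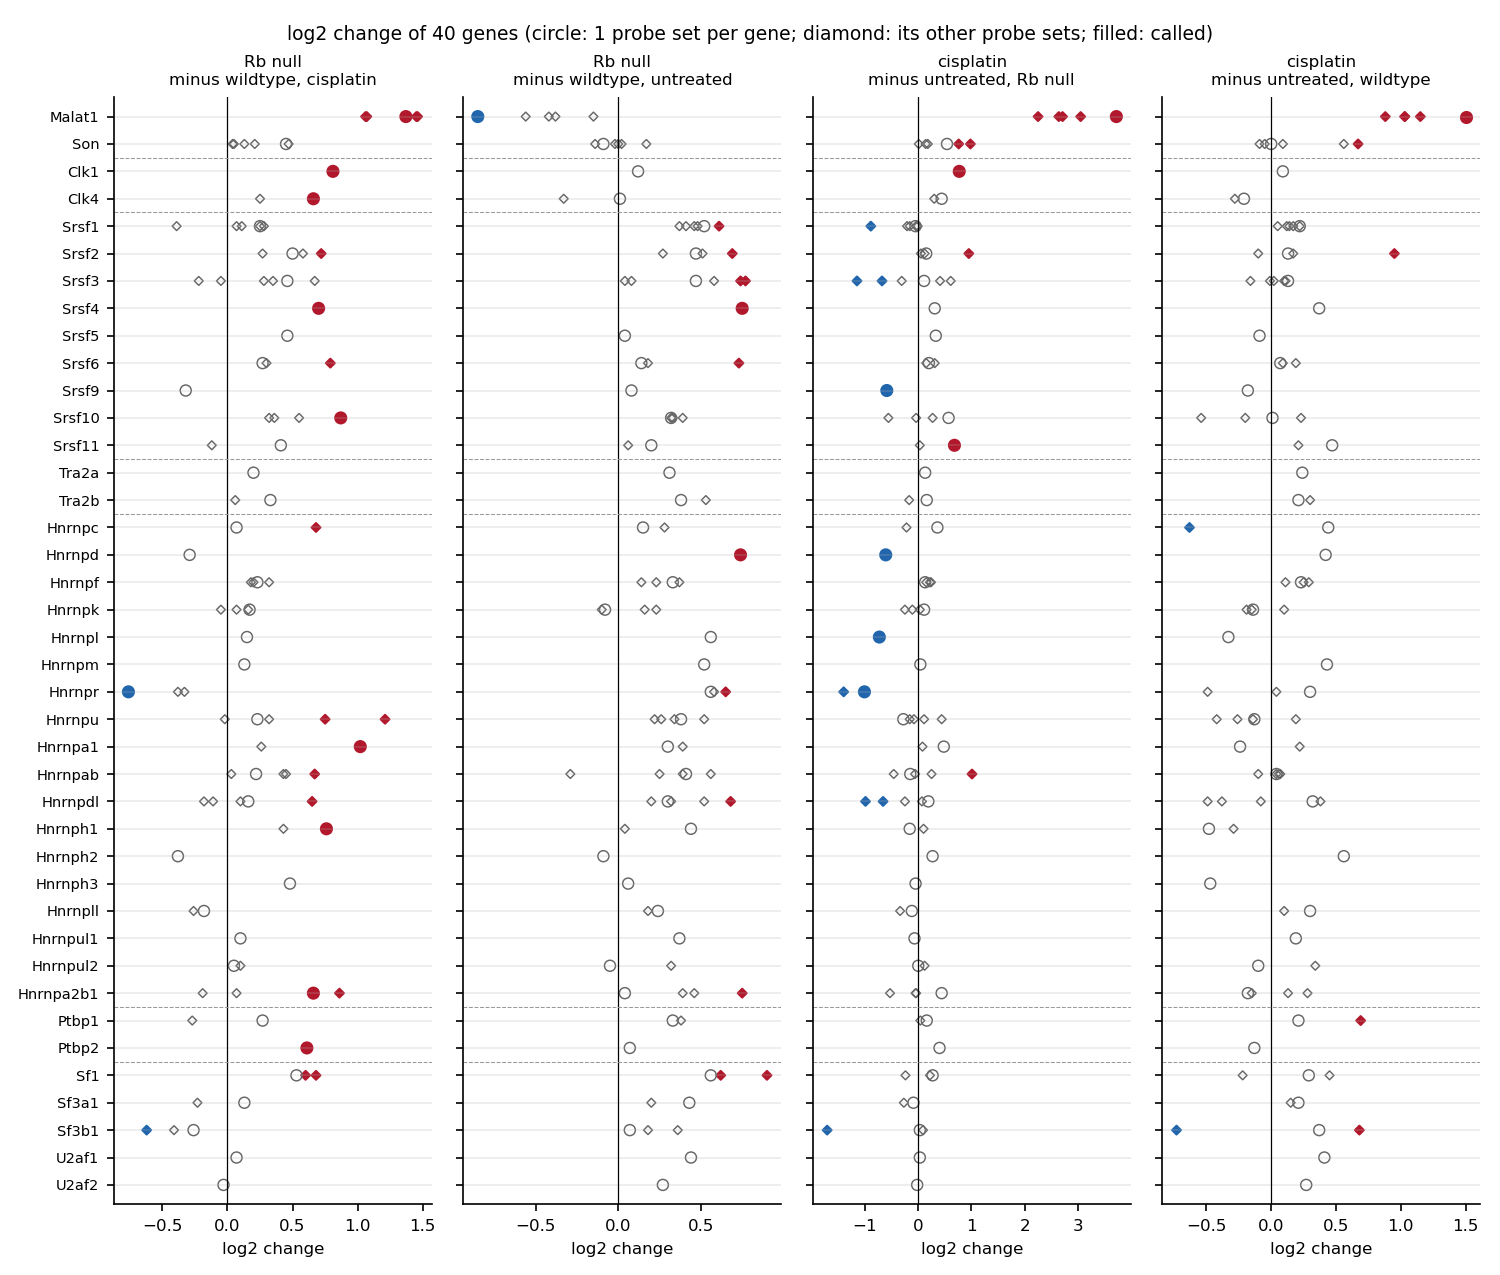
The log2 change of every tested probe set is drawn for 4 comparisons, 1 gene per row, with dashed lines between roles, circles for 1 probe set per gene, diamonds for its others, and filled red or blue marks for calls. Filled marks lie mostly right of 0 in both genotype panels (23 and 12 higher, 2 and 1 lower), and Malat1 reaches 3.72 in the panel for cisplatin in Rb null cells.

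Malat1, a long noncoding RNA retained in nuclear speckles, had the largest cisplatin response of the 40 genes in both genotypes. On its brightest probe set (1438403_s_at) signal was 2561, 4241 and 3776 in Rb null cells after cisplatin, 1552, 1026 and 1467 in wildtype cells after cisplatin, 177, 249.5 and 362 in untreated Rb null cells and 520.3, 446 and 425 in untreated wildtype cells. No 2 of the 4 groups overlapped: Rb null cells after cisplatin were highest, wildtype cells after cisplatin next, and untreated Rb null cells lowest. The cisplatin rise was 13.2-fold in Rb null cells (log2 change 3.72 ± 0.23 (SE), adjusted p = 3.37e-09) and 2.83-fold in wildtype cells (log2 change 1.5 ± 0.23 (SE), adjusted p = 6.43e-05). After cisplatin Rb null cells exceeded wildtype cells 2.59-fold (log2 change 1.37 ± 0.23 (SE), adjusted p = 0.000187).

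A second Malat1 probe set (1452378_at), the one with the largest genotype difference after cisplatin, gave 1252, 1254 and 1237 in Rb null cells after cisplatin, 410.4, 455 and 482 in wildtype cells after cisplatin, 186, 112 and 135 in untreated Rb null cells and 213, 231 and 199.8 in untreated wildtype cells. The order of the groups was the same, again without overlap, and the Rb null excess after cisplatin was 2.74-fold (log2 change 1.46 ± 0.14 (SE), adjusted p = 1.06e-06). The remaining 3 probe sets averaged 1530 ± 302.2, 1093 ± 80.1 and 962.4 ± 30.6 in Rb null cells after cisplatin, against 721.6 ± 107.9, 394.8 ± 27.6 and 453.4 ± 15.7 in wildtype cells after cisplatin (SD, n = 3 each). Without cisplatin they averaged 310.9 ± 31.5, 160.6 ± 35.2 and 145.4 ± 2.51 in Rb null cells, against 351.4 ± 78.6, 212.1 ± 47.1 and 198.8 ± 10.9 in wildtype cells. All 5 probe sets were called higher with cisplatin in both genotypes and higher in Rb null cells after cisplatin.

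In untreated cells Malat1 was lower in Rb null cells on all 5 probe sets, but only the brightest was called (log2 change -0.85 ± 0.23 (SE), adjusted p = 0.0105), and the other 4 had log2 differences of -0.15 to -0.56. Without Rb null replicate 1 that call was lost, at a log2 difference of -0.60. On the brightest probe set, then, Rb null cells were below wildtype cells before the drug and above them after it. The Malat1 promoter shown above held none of the E2F-like, CCAAT, TGACGTCA or GGGCGG letters.

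**Figure D2:**
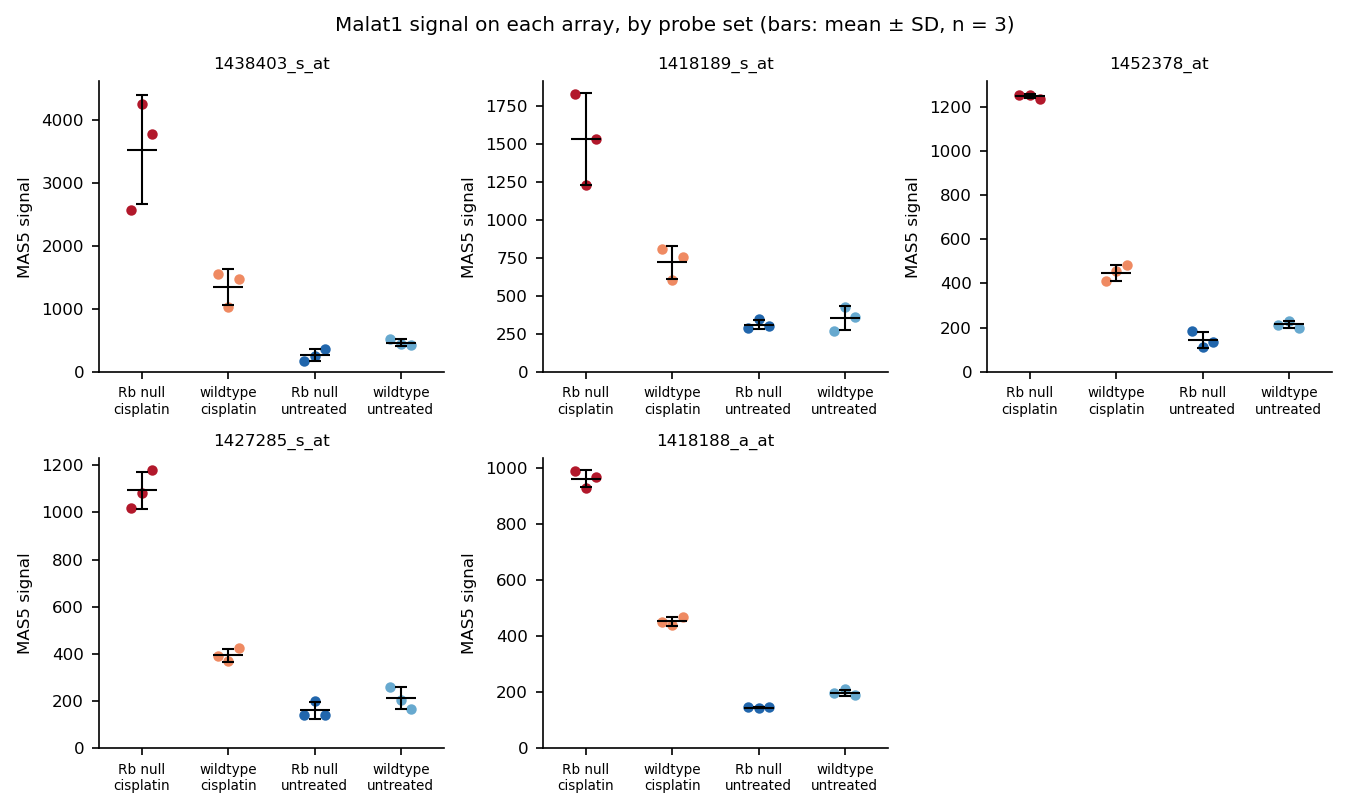
MAS5 signal of the 5 Malat1 probe sets is plotted for each array, grouped from left to right as Rb null and wildtype after cisplatin and Rb null and wildtype untreated, with a bar for mean ± SD (n = 3). On all 5 the Rb null arrays after cisplatin lie highest and the wildtype arrays after cisplatin next, and the untreated arrays lie lowest.

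Son encodes a large SR-related protein that scaffolds nuclear speckles. Its probe set 1439074_a_at gave 990.2, 936 and 877 in Rb null cells after cisplatin, 772, 589 and 659 in wildtype cells after cisplatin, 414, 445 and 556 in untreated Rb null cells and 398, 445 and 405 in untreated wildtype cells. Both cisplatin groups lay above both untreated groups, and the untreated groups overlapped each other. The rise was 1.97-fold in Rb null cells (log2 change 0.98 ± 0.12 (SE), adjusted p = 4.04e-06) and 1.60-fold in wildtype cells (log2 change 0.67 ± 0.12 (SE), adjusted p = 0.000208). The brightest Son probe set (1420952_at) gave 1688, 1693 and 1747 in Rb null cells after cisplatin, 1312, 1226 and 1205 in wildtype cells after cisplatin, 1142, 1153 and 1215 in untreated Rb null cells and 1339, 1196 and 1214 in untreated wildtype cells. There, Rb null cells after cisplatin lay above the other 3 groups, which overlapped, and the log2 change of 0.54 was below the 1.5-fold minimum. Of the 6 Son probe sets, 2 were called higher with cisplatin in Rb null cells, 1439074_a_at and 1456630_x_at (log2 change 0.76, adjusted p = 0.000567), and 1 in wildtype cells. None was called in the genotype comparisons or in the difference of responses.

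Clk1 and Clk4, kinases that phosphorylate SR proteins and release them from speckles, were higher in Rb null than in wildtype cells after cisplatin. Clk1 (1426124_a_at) gave 1866, 1678 and 1815 in Rb null cells after cisplatin, 1066, 969.5 and 1002 in wildtype cells after cisplatin, 1137, 929 and 1061 in untreated Rb null cells and 1078, 896 and 892 in untreated wildtype cells. Rb null cells after cisplatin were separate from the other 3 groups, which overlapped one another. Clk1 rose 1.71-fold with cisplatin in Rb null cells (log2 change 0.77 ± 0.09 (SE), adjusted p = 3.95e-06), while the log2 change in wildtype cells was 0.09 (adjusted p = 0.451). After cisplatin the Rb null excess was 1.76-fold (log2 change 0.81 ± 0.09 (SE), adjusted p = 5.9e-06).

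Clk4 (1422886_a_at) gave 425, 492 and 466 in Rb null cells after cisplatin, 287, 305 and 273 in wildtype cells after cisplatin, 326, 335 and 344 in untreated Rb null cells and 378, 332 and 296 in untreated wildtype cells. Rb null cells after cisplatin were again above the other 3 groups, and wildtype cells after cisplatin, the lowest by mean, overlapped untreated wildtype cells. The Rb null excess after cisplatin was 1.58-fold (log2 change 0.66 ± 0.10 (SE), adjusted p = 9.69e-05), and the cisplatin change in Rb null cells (log2 change 0.44, adjusted p = 0.00147) passed the adjusted p but not the fold minimum. The second Clk4 probe set (1427663_a_at) gave 245, 307 and 285 in Rb null cells after cisplatin, 213, 250 and 232 in wildtype cells after cisplatin, 222, 268 and 189 in untreated Rb null cells and 299, 275 and 277 in untreated wildtype cells. There untreated wildtype cells lay above wildtype cells after cisplatin and above untreated Rb null cells, Rb null cells after cisplatin overlapped every other group, and no comparison was called.

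**Figure D3:**
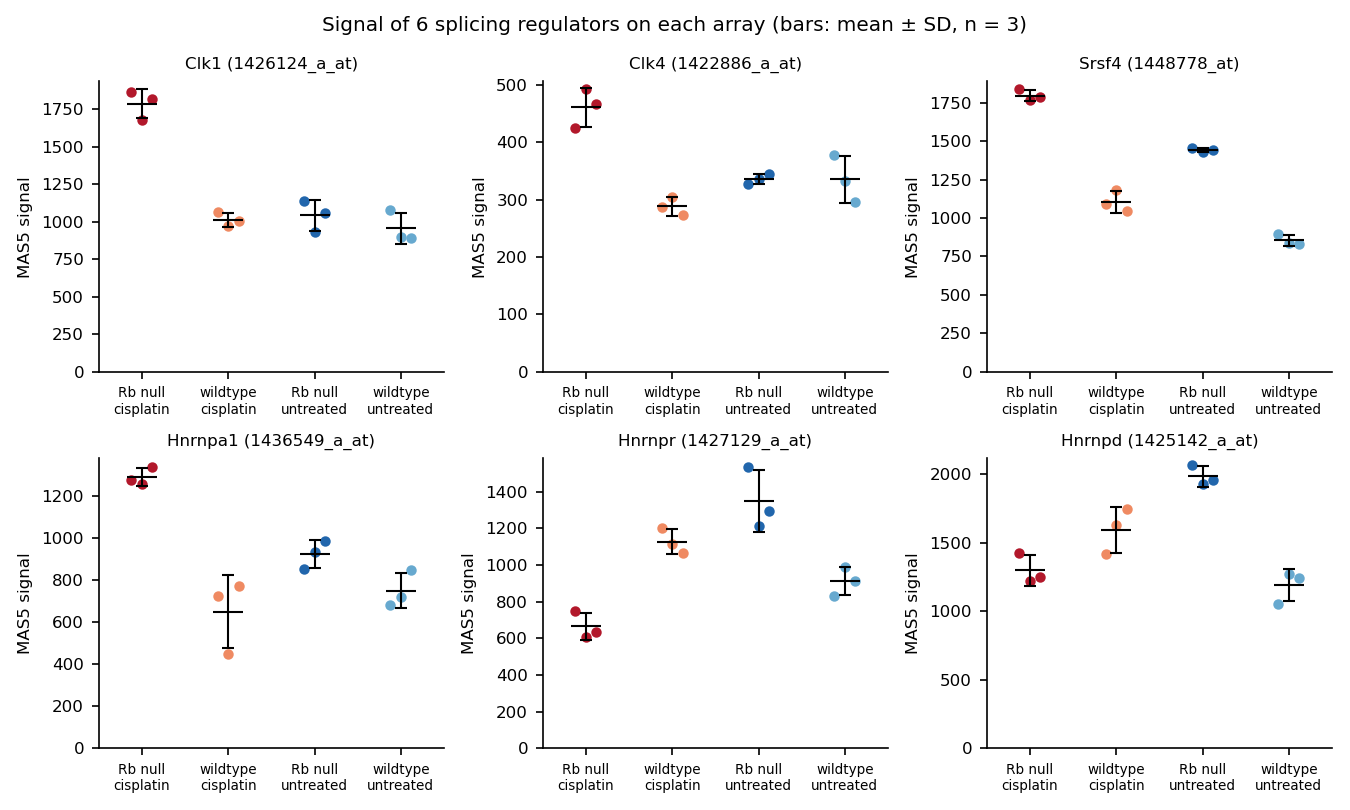
MAS5 signal is plotted for each array for Clk1, Clk4, Srsf4, Hnrnpa1, Hnrnpr and Hnrnpd, 1 probe set each, in the order Rb null and wildtype after cisplatin and Rb null and wildtype untreated, with a bar for mean ± SD (n = 3). Clk1 and Clk4 are highest in Rb null cells after cisplatin, Srsf4 is higher in Rb null cells with and without the drug, and Hnrnpr is lowest in Rb null cells after cisplatin and highest in untreated Rb null cells.

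The 9 SR protein genes had 28 tested probe sets. In untreated cells all 28 had a positive Rb null minus wildtype difference, with a median of 0.40, and 6 (21.4%, against 7.68% of all tested) were called higher and none lower. After cisplatin 4 (14.3%, against 9.21%) were called higher and none lower, with a median of 0.31 and 23 positive differences. The cisplatin response in Rb null cells was called higher on 2 (7.14%, against 15.8%) and lower on 4 (14.3%, against 20.9%), with a median of 0.08. In wildtype cells it was called higher on 1 (3.57%, against 13.5%) and lower on none, with a median of 0.11.

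Srsf4, a classical SR protein with a long arginine- and serine-rich tail, separated the genotypes under both conditions. Its single probe set (1448778_at) gave 1836, 1764 and 1787 in Rb null cells after cisplatin, 1089.6, 1184 and 1044 in wildtype cells after cisplatin, 1454, 1431 and 1445 in untreated Rb null cells and 893, 837 and 831 in untreated wildtype cells. No groups overlapped, and both Rb null groups lay above both wildtype groups. The Rb null excess was 1.62-fold after cisplatin (log2 change 0.70 ± 0.07 (SE), adjusted p = 1e-06) and 1.68-fold without it (log2 change 0.75 ± 0.07 (SE), adjusted p = 6.32e-07). Srsf6, another classical SR protein, had 1 of its 3 probe sets (1416721_s_at) called higher in Rb null cells after cisplatin (log2 change 0.79, adjusted p = 6.57e-05) and without it (log2 change 0.73, adjusted p = 0.000232). The lowest Srsf6 differences were 0.27 after cisplatin and 0.14 without it, not called. Srsf10, an SR protein that represses splicing when dephosphorylated, was called higher in Rb null cells after cisplatin on its representative probe set (log2 change 0.87, adjusted p = 2e-06). That was 1 of its 4 probe sets, and the lowest difference among the others was 0.32.

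Srsf3, the smallest SR protein, which also promotes messenger RNA export, differed between probe sets. Probe set 1416151_at gave 187, 153 and 161 in Rb null cells after cisplatin, 187, 210.0 and 191 in wildtype cells after cisplatin, 341, 409.5 and 396 in untreated Rb null cells and 231, 239 and 190.2 in untreated wildtype cells. Untreated Rb null cells were above all other groups, while the wildtype groups overlapped each other. The untreated Rb null excess was 1.70-fold (log2 change 0.77 ± 0.12 (SE), adjusted p = 0.000243), and with cisplatin signal in Rb null cells was 2.21-fold lower (log2 change -1.15 ± 0.12 (SE), adjusted p = 1.45e-06). Probe set 1416152_a_at moved the same way, with log2 changes of 0.74 for the untreated genotype difference (adjusted p = 0.000463) and -0.68 for cisplatin in Rb null cells (adjusted p = 0.000332). The brightest probe set (1416150_a_at) gave 2907, 2392 and 2738 in Rb null cells after cisplatin, 1689, 1949.5 and 2226 in wildtype cells after cisplatin, 2291, 2486 and 2638 in untreated Rb null cells and 1404, 1992 and 2015 in untreated wildtype cells. Both Rb null groups lay above both wildtype groups there, and the cisplatin change in Rb null cells was 0.11, not called. The remaining 3 Srsf3 probe sets, with changes of -0.31, 0.41 and 0.61, were called in no comparison.

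Srsf1, the archetypal SR protein, had 6 tested probe sets. On 1428100_at it gave 216, 193 and 215 in Rb null cells after cisplatin, 263, 287 and 279 in wildtype cells after cisplatin, 384, 407 and 387 in untreated Rb null cells and 267, 273 and 226 in untreated wildtype cells. Untreated Rb null cells were highest and Rb null cells after cisplatin lowest, and the wildtype groups overlapped. With cisplatin signal was 1.85-fold lower in Rb null cells (log2 change -0.89 ± 0.10 (SE), adjusted p = 2.56e-06), and in untreated cells Rb null exceeded wildtype 1.52-fold (log2 change 0.61 ± 0.10 (SE), adjusted p = 0.000322). None of the other 5 Srsf1 probe sets was called in any comparison, and their cisplatin changes in Rb null cells lay between -0.21 and -0.01. The Srsf1 promoter printed above is one of those with an E2F-like match.

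Srsf2, the SR protein first described as SC35, was called higher in Rb null cells on 1452439_s_at after cisplatin (log2 change 0.72, adjusted p = 3.33e-07) and on 1415807_s_at without it (log2 change 0.69, adjusted p = 1.02e-05). Its probe set 1427816_at gave 127, 347 and 226 in Rb null cells after cisplatin, 214, 228 and 114 in wildtype cells after cisplatin, 157, 82.2 and 92.8 in untreated Rb null cells and 105, 84.8 and 73.2 in untreated wildtype cells. Its arrays were scattered: in wildtype cells all 3 cisplatin arrays lay above the 3 untreated arrays, and in Rb null cells the groups overlapped. The wildtype rise (log2 change 0.95 ± 0.33 (SE), adjusted p = 0.0248) lost its call when wildtype cisplatin replicate a (0.82) or b (0.78), or untreated wildtype replicate 2 (0.94) or 3 (0.85), was left out. In Rb null cells this probe set was also called (log2 change 0.95, adjusted p = 0.0204). Srsf11 (1452371_at, log2 change 0.68, adjusted p = 8.38e-08) was called higher and Srsf9 (log2 change -0.59, adjusted p = 1.91e-05) lower with cisplatin in Rb null cells. The other Srsf11 probe set (1427269_at) had a log2 change of 0.03 there (adjusted p = 0.818). Srsf5, like the SR-like activators Tra2a and Tra2b, was called nowhere.

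The 18 hnRNP genes had 46 tested probe sets. After cisplatin 9 (19.6%, against 9.21% of all tested) were called higher and 1 (2.17%, against 12.9%) lower in Rb null cells, with a median of 0.16. Without cisplatin 4 (8.70%, against 7.68%) were called higher and none lower, with a median of 0.32. The cisplatin response in Rb null cells was called higher on 1 (2.17%, against 15.8%) and lower on 7 (15.2%, against 20.9%), with a median of -0.05. In wildtype cells none was called higher and 1 (2.17%, against 13.2%) lower, with a median of 0.04.

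Hnrnpr, a messenger RNA binding protein related to SYNCRIP, was the gene called lower in Rb null cells after cisplatin on its representative probe set. That probe set (1427129_a_at) gave 748, 609.9 and 637 in Rb null cells after cisplatin, 1199.7, 1117 and 1064 in wildtype cells after cisplatin, 1537, 1214 and 1297 in untreated Rb null cells and 833, 989.5 and 915 in untreated wildtype cells. No groups overlapped, with untreated Rb null cells highest and Rb null cells after cisplatin lowest. Signal was 2.01-fold lower with cisplatin in Rb null cells (log2 change -1.01 ± 0.10 (SE), adjusted p = 8.28e-07) and 1.69-fold lower in Rb null than in wildtype cells after cisplatin (log2 change -0.76 ± 0.10 (SE), adjusted p = 3.26e-05). Probe set 1452030_a_at gave 246, 279 and 335 in Rb null cells after cisplatin, 364, 336 and 378 in wildtype cells after cisplatin, 754, 803 and 745 in untreated Rb null cells and 425, 490.4 and 634 in untreated wildtype cells. The same ordering of the Rb null groups was seen, without overlap between any groups, and the cisplatin fall in Rb null cells was 2.64-fold (log2 change -1.40 ± 0.13 (SE), adjusted p = 4.08e-07). The third probe set (1437526_x_at) was also called lower with cisplatin in Rb null cells (log2 change -0.99, adjusted p = 0.00087) and higher in untreated Rb null cells (log2 change 0.65, adjusted p = 0.0281).

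Hnrnpd, also called AUF1, binds AU-rich elements and speeds the decay of messenger RNAs that carry them. It (1425142_a_at) gave 1425, 1217 and 1249 in Rb null cells after cisplatin, 1413, 1627 and 1742 in wildtype cells after cisplatin, 2066, 1923 and 1956 in untreated Rb null cells and 1054, 1271 and 1239.9 in untreated wildtype cells. Untreated Rb null cells were above all other groups, and Rb null cells after cisplatin overlapped both wildtype groups. The untreated Rb null excess was 1.67-fold (log2 change 0.74 ± 0.09 (SE), adjusted p = 2.69e-05), and the cisplatin fall in Rb null cells was 1.53-fold (log2 change -0.61 ± 0.09 (SE), adjusted p = 4.8e-05). Hnrnpdl, the paralogue of Hnrnpd, had 1420093_s_at (log2 change -0.99, adjusted p = 1.61e-08) and 1424252_at (log2 change -0.66, adjusted p = 9.85e-06) called lower with cisplatin in Rb null cells. Its brightest probe set (1424251_a_at) went the other way (log2 change 0.19, adjusted p = 0.0233), below the fold minimum. Its probe sets 1428225_s_at and 1449039_a_at had changes of 0.07 and -0.25, not called. Hnrnpl, which binds CA repeats, was called lower with cisplatin in Rb null cells as well (log2 change -0.73, adjusted p = 2.17e-06).

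Hnrnpa1, an abundant antagonist of SR proteins that represses exons, was higher in Rb null cells after cisplatin. It (1436549_a_at) gave 1272, 1254 and 1335 in Rb null cells after cisplatin, 725, 449.5 and 769 in wildtype cells after cisplatin, 852, 933 and 986 in untreated Rb null cells and 683, 721 and 845 in untreated wildtype cells. Rb null cells after cisplatin were highest and untreated Rb null cells next, and the wildtype groups overlapped. The Rb null excess after cisplatin was 2.02-fold (log2 change 1.02 ± 0.15 (SE), adjusted p = 8.16e-05), and the other tested Hnrnpa1 probe set had a log2 difference of 0.26, not called. Hnrnpu, also called SAF-A, which attaches RNA to chromatin, gave 236, 275 and 299 in Rb null cells after cisplatin, 90.6, 139 and 105 in wildtype cells after cisplatin, 178, 203 and 206 in untreated Rb null cells and 129.6, 137 and 133 in untreated wildtype cells on 1434390_at. Both Rb null groups lay above both wildtype groups, and the excess after cisplatin was 2.32-fold (log2 change 1.21 ± 0.15 (SE), adjusted p = 1.52e-05). Of its 5 tested probe sets 1 other, 1434391_at, was called in that comparison (log2 change 0.75, adjusted p = 0.000288), and the remaining 3 had differences of -0.02 to 0.32.

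Hnrnpab, a relative of Hnrnpd, had 1 probe set (1426114_at) that gave 3084, 3064 and 3086 in Rb null cells after cisplatin, 1835, 1890.4 and 2086 in wildtype cells after cisplatin, 1389, 1597 and 1579 in untreated Rb null cells and 2143, 1961 and 1523 in untreated wildtype cells. Rb null cells after cisplatin lay above every other array. Cisplatin signal was 2.02-fold higher in Rb null cells (log2 change 1.01 ± 0.10 (SE), adjusted p = 7.75e-07), and the excess over wildtype cells after cisplatin was 1.59-fold (log2 change 0.67 ± 0.10 (SE), adjusted p = 9.79e-05). None of the other Hnrnpab probe sets was called. Hnrnpc, which competes with U2AF for uridine tracts, gave 581, 515 and 541 in Rb null cells after cisplatin, 289, 319.6 and 407 in wildtype cells after cisplatin, 656, 579.7 and 682 in untreated Rb null cells and 434, 641 and 519.9 in untreated wildtype cells on 1418693_at. Wildtype cells after cisplatin were below every other group, which overlapped. The fall in wildtype cells (log2 change -0.63 ± 0.14 (SE), adjusted p = 0.00155) lost its call without untreated wildtype replicate 2 (-0.49) or wildtype cisplatin replicate a (-0.53). The brighter Hnrnpc probe set (1460240_a_at) instead rose with cisplatin in wildtype cells (log2 change 0.44, adjusted p = 2.62e-06). It also rose in Rb null cells (log2 change 0.36, adjusted p = 1.36e-05), and both rises were below the fold minimum. Hnrnph1, which binds G-rich runs, was called higher in Rb null cells after cisplatin on 1 of its 2 probe sets (log2 change 0.76, adjusted p = 2.15e-06). The other had a log2 difference of 0.43, not called.

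Sf1, which binds the branch point first, was higher in Rb null cells under both conditions. Its probe set 1422321_a_at gave 654, 659 and 617 in Rb null cells after cisplatin, 348, 466 and 389.8 in wildtype cells after cisplatin, 582, 559.9 and 507 in untreated Rb null cells and 343, 239 and 295 in untreated wildtype cells. No groups overlapped, and both Rb null groups lay above both wildtype groups. The Rb null excess was 1.87-fold without cisplatin (log2 change 0.90 ± 0.13 (SE), adjusted p = 7.59e-05) and 1.60-fold with it (log2 change 0.68 ± 0.13 (SE), adjusted p = 0.000504). The brightest Sf1 probe set (1423750_a_at) showed differences of 0.56 and 0.53, below the fold minimum. Ptbp1, the polypyrimidine tract binding repressor, gave 104, 166 and 146 in Rb null cells after cisplatin, 164, 152 and 186 in wildtype cells after cisplatin, 184, 109.8 and 114 in untreated Rb null cells and 110.1, 125 and 70.0 in untreated wildtype cells on its dimmer probe set 1450443_at. The wildtype groups did not overlap while the Rb null groups did, and the wildtype rise (log2 change 0.69 ± 0.24 (SE), adjusted p = 0.0221) lost its call without untreated wildtype replicate 3 (0.47) or wildtype cisplatin replicate c (0.62). Ptbp2, its neuronal paralogue, was called higher in Rb null cells after cisplatin (log2 change 0.61, adjusted p = 0.000431).

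Sf3b1, the branch point binding subunit of the U2 particle, gave opposite calls on its probe sets. The dim probe set 1418561_at gave 74.5, 81.7 and 80.9 in Rb null cells after cisplatin, 180.1, 114 and 98.7 in wildtype cells after cisplatin, 309, 235 and 307 in untreated Rb null cells and 215, 221 and 215 in untreated wildtype cells. No groups overlapped, both cisplatin groups lay below both untreated groups, and the cisplatin fall was 3.27-fold in Rb null cells (log2 change -1.71 ± 0.18 (SE), adjusted p = 1.34e-06) and 1.66-fold in wildtype cells (log2 change -0.73 ± 0.18 (SE), adjusted p = 0.00379). Without wildtype cisplatin replicate c the wildtype fall was -0.56 and was not called. Its lower signal in Rb null than in wildtype cells after cisplatin (log2 change -0.62 ± 0.18 (SE), adjusted p = 0.0115) was -0.38 without wildtype replicate a and -0.58 without Rb null replicate a, neither of them called.

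Probe set 1418562_at of Sf3b1 gave 1043, 1127 and 973 in Rb null cells after cisplatin, 1408, 1438 and 1329.6 in wildtype cells after cisplatin, 991, 993 and 964 in untreated Rb null cells and 841, 885 and 876 in untreated wildtype cells. Here wildtype cells after cisplatin were highest, and signal rose 1.60-fold with cisplatin in wildtype cells (log2 change 0.68 ± 0.07 (SE), adjusted p = 1.43e-06) and had a log2 change of 0.09 in Rb null cells. The brightest Sf3b1 probe set (1449138_at) gave 2434, 2894 and 2858 in Rb null cells after cisplatin, 3178, 3213 and 3424 in wildtype cells after cisplatin, 2526, 2868 and 2605 in untreated Rb null cells and 2527, 2519 and 2555 in untreated wildtype cells. Wildtype cells after cisplatin were again highest, with a log2 change of 0.37 that did not reach the fold minimum. The positions of the probe sets along the transcripts were not used here, so which isoform or end each reads was not tested. The 3′ to 5′ ratio of the array's Gapdh control probes, a measure of RNA integrity, was 0.798 to 0.881 in Rb null and 0.782 to 0.866 in wildtype cells after cisplatin, and 0.759 to 0.776 in Rb null and 0.781 to 0.800 in wildtype cells without it. For the beta-actin control probes it was 1.19 to 1.32 in Rb null and 1.2 to 1.25 in wildtype cells after cisplatin. Without cisplatin it was 1.1 to 1.23 in Rb null and 1.12 to 1.17 in wildtype cells. With and without cisplatin, the beta-actin ranges of wildtype cells and the Gapdh ranges of Rb null cells did not overlap. The beta-actin ranges of Rb null cells and the Gapdh ranges of wildtype cells did.

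Among the 26 genes with several tested probe sets, the median range of log2 change within a gene was 0.54 for cisplatin in Rb null cells and 0.45 for cisplatin in wildtype cells. It was 0.44 and 0.30 for the genotype difference with and without cisplatin and 0.47 for the difference of responses. The widest range was 1.80, for Sf3b1 with cisplatin in Rb null cells. Taking 1 probe set per gene, 9 of the 40 genes (22.5%, against 9.67% of all 7945 tested genes) were called higher and 1 (2.50%, against 13.3%) lower in Rb null cells after cisplatin. Without it 2 (5.00%, against 8.07%) were called higher and 1 (2.50%, against 5.08%) lower. With cisplatin 3 (7.50%, against 16.6%) were called higher and 4 (10.0%, against 20.3%) lower in Rb null cells, and 1 (2.50%, against 14.8%) higher and none (against 12.7%) lower in wildtype cells. The difference of responses was called higher for 5 (12.5%, against 8.70%) and lower for 2 (5.00%, against 15.0%).

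**Figure D4:**
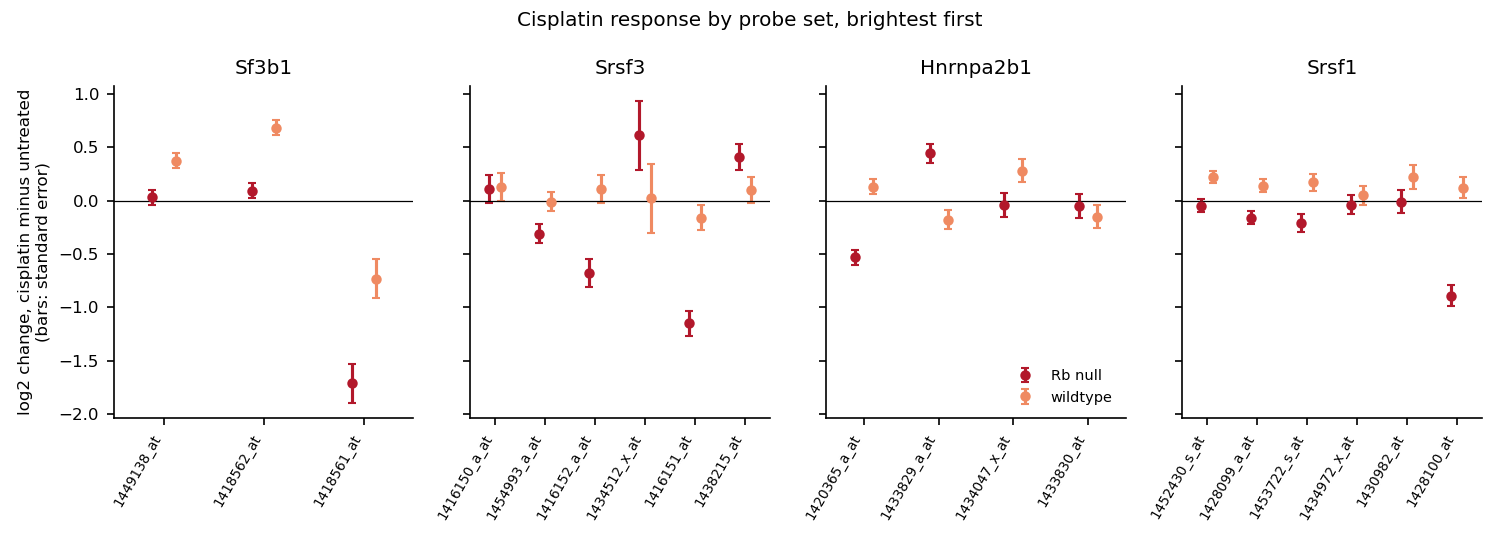
The cisplatin log2 change (± SE) of each tested probe set of Sf3b1, Srsf3, Hnrnpa2b1 and Srsf1 is plotted for Rb null and wildtype cells, ordered by mean signal in untreated Rb null cells with the brightest at the left. In Sf3b1 the dimmest probe set is at -1.71 and -0.73 while the other 2 are at or above 0, and in Srsf1 only 1 of 6 lies far below 0 in Rb null cells.

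The difference between the 2 cisplatin responses, Rb null minus wildtype, was called on 22 probe sets: 11 higher (10.6%, against 8.64% of all tested) and 11 lower (10.6%, against 14.4% of all tested). With each array centred on its median the split was 16 higher (15.4%, against 11.7% of all tested) and 8 lower (7.69%, against 11.0% of all tested). All 5 Malat1 probe sets were among the higher ones, with log2 differences of 1.22 to 2.22, and the brightest gave log2 change 2.22 ± 0.32 (SE), adjusted p = 0.000109. Hnrnpab followed (log2 change 0.96 ± 0.15 (SE), adjusted p = 0.000165), then Hnrnpa1 (log2 change 0.71 ± 0.22 (SE), adjusted p = 0.0188), Hnrnpu (log2 change 0.69 ± 0.22 (SE), adjusted p = 0.0205), Clk1 (log2 change 0.69 ± 0.13 (SE), adjusted p = 0.00092) and Clk4 (log2 change 0.65 ± 0.14 (SE), adjusted p = 0.00279). The Hnrnpa1 call was lost without wildtype cisplatin replicate b (0.47), and the Clk4 call without untreated wildtype replicate 1 (0.56). Hnrnpab, Hnrnpa1 and Hnrnpu were each called on 1 probe set. The brightest probe set was at -0.19 for Hnrnpab and -0.16 for Hnrnpu, and the other tested one of Hnrnpa1 at -0.13, none called.

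The lower ones were led by Hnrnpr (log2 change -1.31 ± 0.15 (SE), adjusted p = 1.03e-05), called on all 3 of its probe sets, Hnrnpd (log2 change -1.03 ± 0.13 (SE), adjusted p = 3.63e-05) and Srsf1 (log2 change -1.0 ± 0.14 (SE), adjusted p = 9.27e-05). The others were 2 probe sets each of Srsf3 and Sf3b1 and 1 each of Hnrnpdl and Hnrnpa2b1. On these 11 probe sets the untreated Rb null minus wildtype log2 difference was 0.18 to 0.77, and that difference rests on untreated wildtype arrays, which stood apart in sex-linked transcripts.

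Hnrnpa2b1, which guides alternative splicing and the sorting of RNAs, was called in both directions. Its brightest probe set (1433829_a_at) gave 3334, 4186 and 3613 in Rb null cells after cisplatin, 2625, 2303 and 2119.5 in wildtype cells after cisplatin, 2842, 2461 and 2861 in untreated Rb null cells and 2669, 2511 and 2761 in untreated wildtype cells. Rb null cells after cisplatin were above the other groups, and the difference of responses was 0.62 ± 0.13 (SE, adjusted p = 0.00239). Probe set 1420365_a_at gave 2309, 2312 and 2204 in Rb null cells after cisplatin, 2406, 2798 and 2600.0 in wildtype cells after cisplatin, 3313, 3256 and 3288 in untreated Rb null cells and 2256, 2327 and 2561 in untreated wildtype cells. There untreated Rb null cells were above the other groups, and the difference was -0.65 ± 0.09 (SE, adjusted p = 9.75e-05). On 1433830_at signal was 998, 788 and 937 in Rb null cells after cisplatin, 488, 478 and 516 in wildtype cells after cisplatin, 946, 929 and 926 in untreated Rb null cells and 454, 629 and 581 in untreated wildtype cells. Both Rb null groups lay above both wildtype groups, 1.81-fold after cisplatin (log2 change 0.86 ± 0.11 (SE), adjusted p = 2.23e-05) and 1.69-fold without it (log2 change 0.75 ± 0.11 (SE), adjusted p = 0.000126).

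Across the 104 probe sets the Rb null and wildtype responses, which share no arrays, had a Pearson r of 0.679 and a Spearman rho of 0.357. Without the 5 Malat1 probe sets r was 0.403 and rho 0.255 over 99, and over all 13575 tested they were 0.708 and 0.658. These points are probe sets of the same 12 arrays, several to a gene, and are given as a description.

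**Figure D5:**
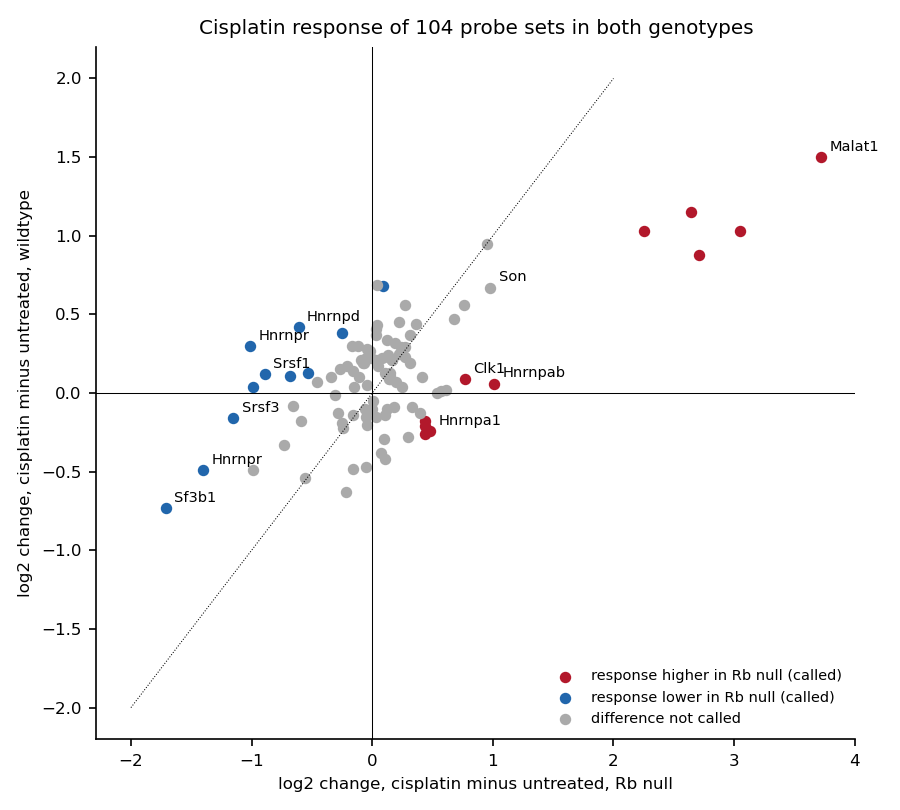
Each of 104 probe sets is placed by its cisplatin log2 change in Rb null cells (x axis) and in wildtype cells (y axis), with a dotted line where the responses are equal and colour for a called difference between them. The 5 Malat1 probe sets lie far to the right, and the 11 in blue, Hnrnpr, Hnrnpd, Srsf3 and Sf3b1 among them, lie left of the dotted line.

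Other splicing genes were counted from lists by function, 1 probe set per gene. Shares are set against those of all 7945 genes given above. Of 28 tested SR-related proteins and SR protein kinases, 2 (7.14%, against 16.6%) were called higher and 3 (10.7%, against 20.3%) lower with cisplatin in Rb null cells, and 3 higher (10.7%, against 14.8%) and 3 lower (10.7%, against 12.7%) in wildtype cells. Srpk2, a cytoplasmic SR protein kinase, was lower in Rb null (log2 change -1.40, adjusted p = 2.27e-08) and in wildtype cells (-1.15, adjusted p = 2.94e-07), as was the nuclear kinase Dyrk1a (-1.42, adjusted p = 3.39e-08, and -0.74, adjusted p = 4.28e-05). Between genotypes 1 was called higher (3.57%, against 9.67%) and 1 lower (3.57%, against 13.3%) after cisplatin, and 2 higher (7.14%, against 8.07%) and none lower without it. Of 38 tested U2 and U5 spliceosome factors, 4 (10.5%, against 16.6%) were called higher and 1 (2.63%, against 20.3%) lower with cisplatin in Rb null cells, and 8 (21.1%, against 14.8%) higher and 2 (5.26%, against 12.7%) lower in wildtype cells. Between genotypes 3 (7.89%, against 9.67%) were called higher after cisplatin and 5 (13.2%, against 8.07%) without it, and none lower.

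Of 31 tested other splicing regulators, 4 (12.9%, against 16.6%) were called higher and 11 (35.5%, against 20.3%) lower with cisplatin in Rb null cells, and 4 higher (12.9%, against 14.8%) and 4 lower (12.9%, against 12.7%) in wildtype cells. Celf2, a CUG-binding regulator, was far lower with cisplatin in Rb null (-4.11, adjusted p = 1.49e-10) and in wildtype cells (-3.18, adjusted p = 3.3e-09), and Khdrbs3, a STAR family regulator, was lower by a like size in each (-3.29, adjusted p = 1.56e-10, and -3.20, adjusted p = 3.25e-10). Neat1, the noncoding RNA that builds paraspeckles and is encoded next to Malat1, was higher with cisplatin in Rb null cells (log2 change 2.46 ± 0.10, SE, adjusted p = 4.4e-11) and higher in Rb null than in wildtype cells after cisplatin (1.67 ± 0.10, adjusted p = 1.18e-08). Its difference of responses was 1.97 ± 0.14 (adjusted p = 1.51e-07), beside 2.22 ± 0.32 for the brightest Malat1 probe set.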

How the data were processed

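Mouse fibroblast RNA was measured on 12 Affymetrix arrays, 3 for each of 4 RNA samples, grouped by the labels. The authors deposited 1 intensity value per probe set, calculated with MAS5 per the submitters' processing notes; each array had a mean of 500.1 to 500.2 after trimming 2% at either end, as the values show. No deposited column was left unused (0 columns). Probe sets were named from the platform annotation: 20380 had 1 symbol, 691 several and 1555 no entry, and 64 control probe sets were left out.

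From these values log2(signal + 10.4) was computed, 10.4 being the 10th percentile of all values, so changes of dim probe sets are understated. The 40% of probe sets with the lowest mean were left out. limma 3.58.1 in R 4.3.3 fitted 1 mean per group over all 12 arrays (8 residual and 6.09 prior degrees of freedom), with a trended prior, two-sided tests and Benjamini-Hochberg adjustment over 13575 probe sets for each of 5 comparisons. A call needed an adjusted p under 0.05 and 1.5-fold. Each group is 1 RNA sample on 3 arrays, so the arrays measure the precision of hybridisation and there is no biological replicate. The fit was tested on simulated data.

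The genes, lists and alternatives were chosen with earlier results of these data known. All 12 array values are given for Malat1, Son, Clk1 and Clk4, for 3 genes at each extreme of change per comparison, among called probe sets with no overlap between groups, and for genes called in opposite directions. Srsf4 is also given on all 12 arrays, although it falls outside these rules. Other members are named with their change and adjusted p, and up to 4 called genes per comparison from other splicing lists. A gene with several probe sets is represented by the tested one with the highest mean and no cross-hybridisation suffix. Groups of 1 treatment share array numbers or letters. Deviations from the group mean correlated between arrays of the same number or letter at -0.159, 0.109 and -0.186 (1, 2, 3) and -0.021, 0.0835 and -0.000859 (a, b, c), so the numbers do not pair samples. Alternatives covered the pseudocount, filter, scaling, fold minimum, probe sets per gene, a replicate block and each array left out. Promoters were read from RefSeq (GRCm38.p6) and searched for exact letters.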

Additional observations from a re-analysis of the deposited data

Results flagged for a closer look

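For 22 probe sets the cisplatin response differed between Rb null and wildtype cells by the test of the difference itself (limma, adjusted p under 0.05 and at least 1.5-fold), where 8.64% of all tested probe sets were called higher and 14.4% lower. On Malat1 the log2 difference of responses, Rb null minus wildtype, was 2.22, 2.02, 1.82, 1.49 and 1.22 on its 5 probe sets. Of the others called higher, Hnrnpab had 0.96, Hnrnpa1 0.71, Hnrnpu 0.69, Clk1 0.69, Clk4 0.65 and Hnrnpa2b1 0.62, on 1 probe set each. Other probe sets of the same gene, not called, were as low as -0.53 for Hnrnpab, -0.13 for Hnrnpa1 and -0.27 for Hnrnpu. Of those called lower, Hnrnpr had -1.31, -1.03 and -0.91, Hnrnpd -1.03, Srsf1 -1.0, Srsf3 -0.99 and -0.79, Sf3b1 -0.98 and -0.59, Hnrnpa2b1 -0.65 and Hnrnpdl -0.63. Other probe sets, not called, reached -0.09 for Srsf1, 0.59 for Srsf3 and 0.45 for Hnrnpdl. Each value uses the untreated wildtype arrays, which differ from the rest in Xist and Eif2s3y, so it cannot be told apart from that difference.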

How the results depend on the processing

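Of 702 values (32 changes of named genes under up to 23 alternatives), 665 kept their direction and call, 37 lost the call and none reversed. Other than at the 2-fold minimum, 24 of the 32 kept it under every alternative in which they were tested. With the lowest 60% left out, only 23 of the 32 were still tested, and the probe sets removed there were not counted as lost. Counts of probe sets called higher and lower follow in the order Rb null against wildtype after cisplatin and untreated, then cisplatin in Rb null and in wildtype cells, then the difference of responses. At 2-fold they were 7 and 0, 0 and 0, 6 and 4, 4 and 0, and 5 and 4. Without a fold minimum they were 50 and 11, 55 and 4, 26 and 23, 37 and 11, and 18 and 24. With 1 probe set per gene they were 9 and 1, 2 and 1, 3 and 4, 1 and 0, and 5 and 2. Fewer features are tested there by construction. The untreated share called higher in Rb null cells also moved, from 11.5% (against 7.68% of all tested) to 5.00% (against 8.07% of all tested genes). The cause of that move, and of those under the other alternatives, was not tested. With a pseudocount of 45.8 or the lowest 60% left out, the lower count was 1 after cisplatin between genotypes and 1 for cisplatin in wildtype cells. Quantile normalization and median centring gave 1 lower after cisplatin and 2 lower untreated, and a pseudocount of 1 gave 2 lower untreated. Leaving out each array gave 21 to 26 higher and 1 to 2 lower, 11 to 15 and 1 to 2, 10 to 12 and 11 to 12, 7 to 10 and 1 to 3, and 10 to 14 and 10 to 12. Between genotypes the lower count moved to 1 after cisplatin without Rb null or wildtype cisplatin replicate a, and to 2 untreated without wildtype replicate 3. For cisplatin in Rb null cells it moved to 11 without untreated Rb null replicate 1 or 2. In wildtype cells it moved to 1 without cisplatin replicate c and to 3 without untreated replicate 1. For the difference of responses it moved to 10 or 12 for most arrays left out. Median centring moved the share of called probe sets that were higher, over all tested, to 56.3% from 43.0% for cisplatin in Rb null cells, to 51.6% from 37.5% for the difference of responses and to 51.6% from 41.6% between genotypes after cisplatin. With the replicate block, fitted although the numbers do not pair samples, the counts were 23 and 2, 12 and 1, 11 and 12, 9 and 2, and 11 and 11, as in the main analysis. Leaving out the untreated wildtype group, chosen after seeing the data, gave 23 and 2 after cisplatin and 11 and 12 for cisplatin in Rb null cells. Dim probe sets such as Sf3b1 1418561_at (lost with a pseudocount of 45.8 at -0.48, quantile normalization at -0.56 and centring at -0.55 after cisplatin), Ptbp1 1450443_at and Hnrnpc 1418693_at (0.55 and -0.58 with a pseudocount of 45.8 in wildtype cells) limit what is called.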

Other observations

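Core proteins of the small nuclear ribonucleoproteins and the messenger RNA export machinery were counted from lists by function, 1 probe set per gene. Of 12 tested core proteins, 2 (16.7%, against 9.67% of all tested genes) were called higher and none lower in Rb null cells after cisplatin, and 2 (16.7%, against 8.07%) higher and none lower without it, with medians of 0.31 and 0.27. With cisplatin 2 (16.7%, against 16.6%) were called higher and 1 (8.33%, against 20.3%) lower in Rb null cells, and 4 (33.3%, against 14.8%) higher and none lower in wildtype cells. Snrnp48, of the minor spliceosome, was higher with cisplatin in Rb null (log2 change 1.55 ± 0.12, SE, limma adjusted p = 5.72e-08) and in wildtype cells (0.59 ± 0.12, adjusted p = 0.00104). Snrpc, of the U1 particle, was higher in both as well (0.76, adjusted p = 9.31e-07, and 0.72, adjusted p = 2.58e-06). Of 15 tested exon junction and export genes, 3 (20%, against 9.67%) were called higher and 1 (6.67%, against 13.3%) lower in Rb null cells after cisplatin, and 3 (20%, against 8.07%) higher and none lower without it. Nxf1, the main messenger RNA export receptor, was higher with cisplatin in Rb null cells (1.11 ± 0.12, adjusted p = 1.91e-06) and higher in Rb null than in wildtype cells after cisplatin (1.00 ± 0.12, adjusted p = 1.29e-05). Upf1, the helicase of nonsense-mediated decay, was higher with cisplatin in wildtype cells (1.39 ± 0.18, adjusted p = 1.04e-05) and lower in Rb null than in wildtype cells after cisplatin (-0.73 ± 0.18, adjusted p = 0.00322), and higher in untreated Rb null than in untreated wildtype cells (0.75 ± 0.18, adjusted p = 0.00422).

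Over all 7940 genes with a RefSeq span, the Spearman rho between gene span and log2 change with cisplatin was -0.406 in Rb null and -0.313 in wildtype cells. Over the 40 splicing genes it was -0.115 in Rb null and 0.293 in wildtype cells, and their median span was 14.3 kb against 21.9 kb for all. These are descriptions over genes of the same arrays, and genes are not independent.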
